A study of Xenopus laevis x Xenopus muelleri with 6 samples.

Results

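Germ plasm and piRNA pathway genes were followed in the testes of hybrid frogs, through the 7 probe sets whose only gene symbol was ddx4.L, ddx25.L, nanos1.L, grip2.L, tdrd6.L, tdrkh.L or gtsf1.L. These were 7 of 11485 probe sets and 7 of the 5790 genes that a probe set carried as its only symbol. The samples were 3 testes of sex-reversed animals and 3 testes of normal animals, 1 per Affymetrix array, and all 6 came from sexually mature offspring raised from eggs under standard conditions, of a mother of the species Xenopus laevis and a father of Xenopus muelleri. The sources used here do not give the method of sex reversal, the genetic sex of those animals or any age. Samples are labelled as biological replicates, but not as separate animals, so each p-value measures only how these arrays spread, which may be partly technical. The comparison asked whether these germ line genes differed between sex-reversed and normal testis.

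Germ plasm is a patch of mitochondria, RNA and protein in the frog egg that is inherited by the cells that become the germ line, and many of its components stay in use in germ cells of the adult gonad. The piRNA pathway loads small RNAs onto PIWI proteins in germ cells and silences transposons, and several of its proteins carry Tudor domains, which bind methylated arginines of PIWI proteins. In the testis, components of both are found in germ cells. X. laevis keeps many genes in an L and an S copy, one from each of its ancestral genomes. All 7 genes were L copies with 1 probe set each, and 0 of their S copies had a probe set of their own, so neither the other copy nor a second probe set could be compared for them. The suffixes by which Affymetrix marks probes shared between transcripts were on 0 of the 7 probe sets. Whether these probe sets also bind RNA of the S copies was not tested. The array carries X. laevis probes, and how X. muelleri alleles bind them was not tested.

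The values are log2 expression, so a difference of 1 is a 2-fold difference, and the lowest value on each array lay between 1.93 and 2.09 with medians of 5.25 to 5.31. Whether a probe set lay above background was not measured. A germ line marker was bright on every array: dazl.L, an RNA-binding protein gene of the germ line, had 11.92, 11.93 and 11.94 in sex-reversed testis and 12.01, 12.05 and 11.69 in normal testis. The other germ cell markers measured beside the 7 genes were dimmer. Their group means ran from 4.19 (cxcr4.L, normal testis) to 7.01 (id4.S, normal testis). The sperm tail gene tekt1.L had 10.02, 10.07 and 10.00 in sex-reversed testis and 10.57, 10.18 and 10.64 in normal testis, without overlap. Sperm tail genes did not share a direction: spag6.L had 8.93, 9.16 and 9.04 in sex-reversed testis and 8.72, 8.08 and 8.71 in normal testis. It was thus higher in sex-reversed testis, also without overlap. The gene tekt4.S differed by 0.58 with overlap, a sign that rested on normal replicate 2, its lowest array. Its values on normal replicates 1 and 3, 10.07 and 10.085, lay above its sex-reversed mean of 9.97. The groups did not overlap for 9.63% of all probe sets. The steroid enzyme gene cyp17a1.L, a marker of the hormone-producing cells, stood apart on sex-reversed replicate 3, where one of its probe sets read 5.17 against 9.96 to 11.3 on the other 5 arrays. Without that array the log2 differences, sex-reversed minus normal, were -0.02 for ddx4.L, -1.02 for ddx25.L, -0.41 for nanos1.L, -0.41 for grip2.L, 0.17 for tdrd6.L, 1.28 for tdrkh.L and 0.33 for gtsf1.L, and none passed.

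None of the 7 genes passed the test between sex-reversed and normal testis (limma, Benjamini-Hochberg adjusted p under 0.05 over all probe sets), and 0% of all 11485 probe sets passed. At an unadjusted p under 0.05 the count was 0 of 7 genes, beside 4.42% of all probe sets. All 7 genes overlapped between the groups, while the groups did not overlap for 9.63% of all probe sets. In sex-reversed testis 3 of the 7 genes had a higher and 4 a lower mean. Their median log2 difference was -0.09, beside 0.01 over all probe sets. The smallest adjusted p among them was 0.997 in limma.

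For 5 of the 7 genes, ddx4.L, nanos1.L, grip2.L, tdrd6.L and gtsf1.L, the 95% interval stayed inside a 2-fold change both ways, as it did for 62.5% of all probe sets. The intervals of ddx25.L and tdrkh.L were far wider. The 7 genes thus divide into 5 whose arrays lay at most 1.75-fold apart and 2 whose highest array lay at least 10.5-fold above the lowest.

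**Figure D1:**
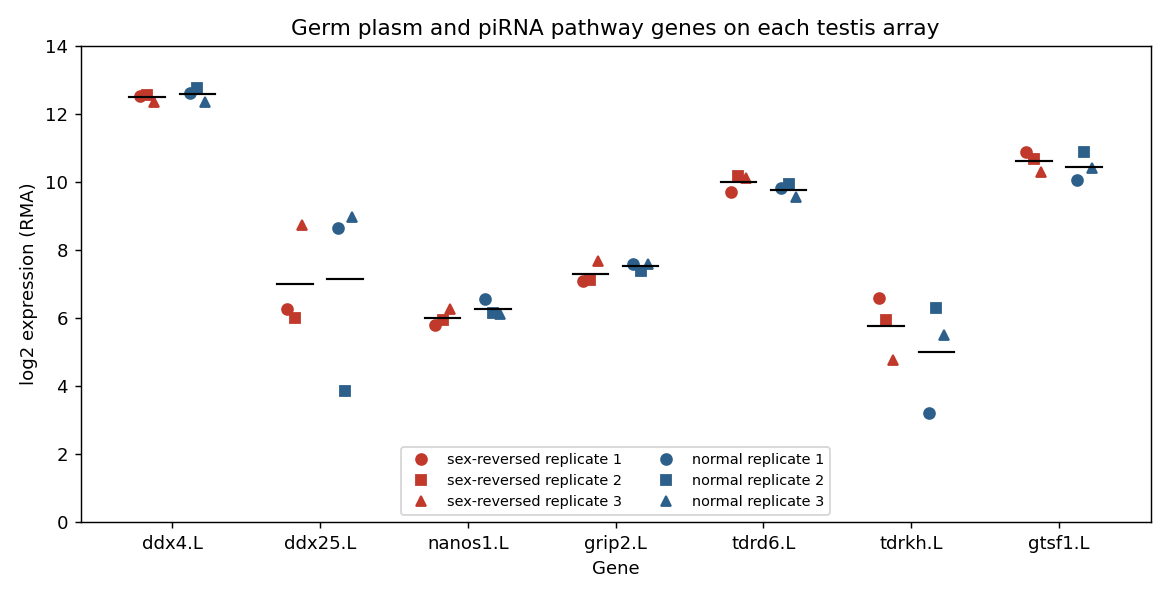
Log2 expression of the 7 genes on each array, with sex-reversed testis in red on the left of each pair and normal testis in blue on the right, replicates by symbol and group means as black bars (n = 3 per group). The groups overlap for every gene, and ddx25.L and tdrkh.L spread over several log2 units within a group; heights of different genes also depend on their probes and are not comparable.

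The helicase gene ddx4.L encodes the frog Vasa protein, an RNA helicase found in germ cells throughout animals. It had 12.54, 12.56 and 12.36 in sex-reversed testis and 12.62, 12.75 and 12.35 in normal testis. The sex-reversed values lay inside the range of the normal ones. Its probe set was brighter than 99.6 to 99.7% of probe sets on the sex-reversed arrays and 99.7 to 99.8% on the normal arrays, a rank that depends on probe affinity as well as on RNA. Group means were 12.49 ± 0.11 in sex-reversed and 12.57 ± 0.20 in normal testis (SD, n = 3 each), a log2 difference of -0.09 with a 95% interval of -0.58 to 0.41 (limma adjusted p = 0.999). The interval allows a level at most 1.49-fold lower or 1.33-fold higher in sex-reversed testis. It was the one gene of the 7 whose interval lay within 1.5-fold, as it did for 8.69% of all probe sets. This was narrowly so and depended on the fit. The lower end passed 1.5-fold with a block for the replicate number (-0.65), cyclic loess (-0.59) and the filter at the 25th percentile of level (-0.61). Under the other alternatives that kept all arrays the interval stayed within it. Without normal replicate 2 the difference was 0.002.

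The second helicase gene, ddx25.L, is known as DEADSouth in Xenopus, where its RNA sits in the germ plasm. In mice its product is a testis helicase of late spermatocytes and round spermatids that is needed to complete sperm formation. The gene had 6.26, 6.01 and 8.74 in sex-reversed testis and 8.65, 3.85 and 8.98 in normal testis. It was high on 1 sex-reversed and 2 normal arrays, intermediate on the other two sex-reversed arrays and lowest on normal replicate 2. The highest array, normal replicate 3, lay 34.9-fold above the lowest, normal replicate 2, and 99.7% of all probe sets had a smaller SD over the 6 arrays. Its rank moved with it: from 60.7 to 91.2% of probe sets were dimmer on the sex-reversed arrays and from 28.4 to 92.5% on the normal arrays. In whole testis, fewer cells of a type and less RNA per cell cannot be told apart.

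Group means of ddx25.L were close, at 7.005 ± 1.51 in sex-reversed and 7.16 ± 2.87 in normal testis (SD, n = 3 each). They differed by -0.15, with -3.37 to 3.06 as the 95% interval (limma adjusted p = 0.999). In that fit this allows a 10.3-fold lower or an 8.36-fold higher level in sex-reversed testis. The width depended on the fit: the interval was -5.35 to 5.05 without moderation of the variance. With a block for the replicate number it was -2.12 to 1.82. The sign rested on single arrays: the difference was 0.22 without sex-reversed replicate 1, 0.34 without sex-reversed replicate 2, 0.59 without normal replicate 1 and 0.75 without normal replicate 3. It was -1.02 once sex-reversed replicate 3 was left out and -1.81 once normal replicate 2 was.

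The translational repressor gene nanos1.L (Xcat2 in Xenopus) gives one of the best known RNAs of the germ plasm. It had 5.79, 5.95 and 6.27 in sex-reversed testis and 6.57, 6.14 and 6.11 in normal testis. The lowest 2 values were sex-reversed and the highest was normal replicate 1, with overlap through sex-reversed replicate 3. The means of 6.004 ± 0.24 in sex-reversed and 6.28 ± 0.26 in normal testis (SD, n = 3 each) differed by -0.27 with a 95% interval of -0.83 to 0.28 (limma adjusted p = 0.997). The difference kept its sign with any 1 array left out, between -0.41 and -0.13. From 57.4 to 64.5% of probe sets were dimmer on the sex-reversed arrays and from 62.3 to 68.4% on the normal arrays.

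The scaffold protein gene grip2.L, whose RNA is localised to the germ plasm in Xenopus and which acts in primordial germ cell migration there, had a similar order of arrays. Its values were 7.10, 7.13 and 7.67 in sex-reversed testis and 7.60, 7.39 and 7.59 in normal testis. Sex-reversed replicates 1 and 2 were the lowest of all 6 arrays and sex-reversed replicate 3 the highest. Means were 7.30 ± 0.32 in sex-reversed and 7.52 ± 0.12 in normal testis (SD, n = 3 each), a difference of -0.22 with a 95% interval of -0.78 to 0.33 (limma adjusted p = 0.997). Leaving out 1 array gave -0.41 to -0.12. From 75.4 to 82.2% of probe sets were dimmer on the sex-reversed arrays and from 79.0 to 81.2% on the normal arrays.

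Among the Tudor domain genes, tdrd6.L (Xtr in Xenopus) encodes a protein with many Tudor domains. In mice TDRD6 belongs to the chromatoid body, the RNA granule of spermatids. It had 9.71, 10.19 and 10.13 in sex-reversed testis and 9.83, 9.95 and 9.55 in normal testis. The highest 2 arrays were sex-reversed and the lowest was normal, with sex-reversed replicate 1 inside the normal range. Means of 10.01 ± 0.26 in sex-reversed and 9.78 ± 0.21 in normal testis (SD, n = 3 each) differed by 0.23 with a 95% interval of -0.31 to 0.78 (limma adjusted p = 0.997). With 1 array left out the difference lay between 0.12 and 0.38. From 96.0 to 97.5% of probe sets were dimmer on the sex-reversed arrays and from 95.3 to 96.8% on the normal arrays.

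The other Tudor gene, tdrkh.L, encodes a Tudor and KH domain protein that in mice sits on mitochondria and holds PIWI proteins while piRNAs are trimmed to length. It had 6.59, 5.95 and 4.78 in sex-reversed testis and 3.20, 6.29 and 5.49 in normal testis. Normal replicate 1 stood lowest and sex-reversed replicate 3 next, and the other 4 arrays lay between 5.49 and 6.59. The highest array lay 10.5-fold above the lowest, and 98.1% of all probe sets had a smaller SD. From 42.3 to 69.1% of probe sets were dimmer on the sex-reversed arrays and from 15.2 to 64.5% on the normal arrays, so that on normal replicate 1 it was among the dim probe sets.

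Means of tdrkh.L were 5.77 ± 0.92 in sex-reversed and 4.99 ± 1.60 in normal testis (SD, n = 3 each). The difference of 0.78 was the widest of the 7 genes and the one of at least 0.5 in size, which 14.8% of all probe sets reached. Its 95% interval of -1.09 to 2.65 (limma adjusted p = 0.997) allows a 2.13-fold lower or a 6.27-fold higher level in sex-reversed testis. Without moderation of the variance the interval was wider, at -2.19 to 3.74, and with a block for the replicate number it was -1.19 to 2.75. Normal replicate 1 decided the value: without it the difference was -0.12, and without normal replicate 2 it was 1.43. Without sex-reversed replicate 3 it was 1.28.

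The zinc finger gene gtsf1.L encodes a partner of PIWI proteins that is needed for transposon silencing in mice and flies. It had 10.87, 10.69 and 10.29 in sex-reversed testis and 10.07, 10.88 and 10.41 in normal testis. Normal replicate 1 was again lowest and sex-reversed replicate 3 next, while normal replicate 2 and sex-reversed replicate 1 were the highest. Means were 10.62 ± 0.30 in sex-reversed and 10.45 ± 0.41 in normal testis (SD, n = 3 each), a difference of 0.17 with a 95% interval of -0.49 to 0.83 (limma adjusted p = 0.999). Without normal replicate 1 it was -0.03, and it reached 0.38 without normal replicate 2. From 97.6 to 98.7% of probe sets were dimmer on the sex-reversed arrays and from 96.9 to 98.7% on the normal arrays.

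**Figure D2:**
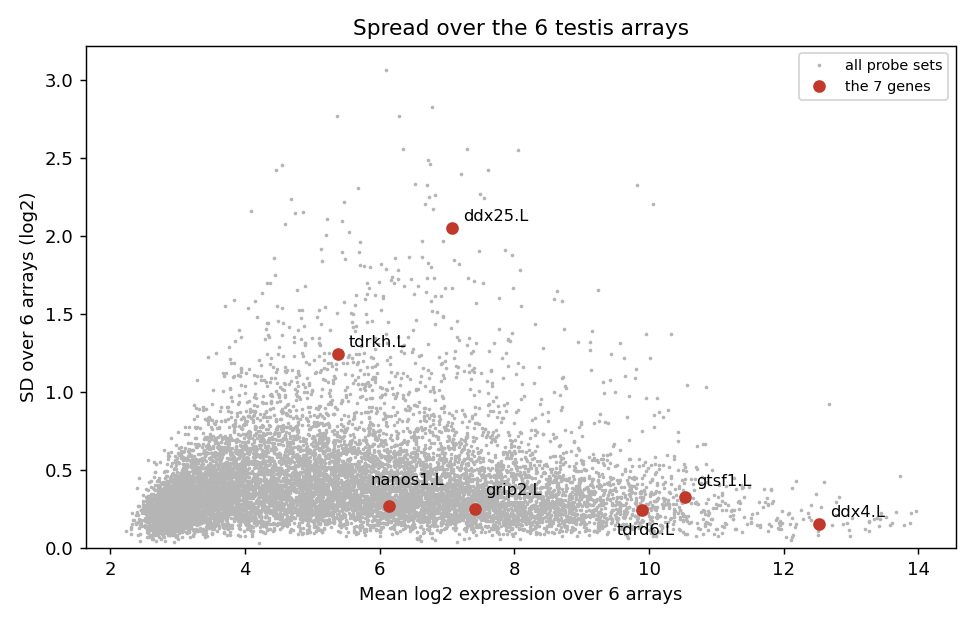
SD over the 6 arrays (log2, y axis) against mean log2 expression over the 6 arrays (x axis) for all 11485 probe sets in grey and the 7 genes in red. ddx25.L (SD 2.05) and tdrkh.L (SD 1.25) lie among the most variable probe sets, and the SD of the other 5 genes is 0.15 to 0.33.

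Spread between testes set ddx25.L and tdrkh.L apart from the other 5 genes. The highest array was at least 8-fold above the lowest for 2 of the 7 genes and for 2.38% of all probe sets. Since levels differ, each gene was also set beside probe sets whose mean lay within 1 log2 unit of its own. There 99.3% of 2823 probe sets had a smaller SD than ddx25.L and 96.9% of 3507 a smaller SD than tdrkh.L. The SD of gtsf1.L exceeded that of 64.6% of 435 probe sets near its level, that of tdrd6.L 35.6% of 720 and that of ddx4.L 31.6% of 76. The SD of grip2.L exceeded 26.0% of 2566 and that of nanos1.L 22.5% of 3281.

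Several of these genes shared an order of arrays that ran across the groups. For tdrkh.L and gtsf1.L the 4 lowest arrays were the same and in the same order: normal replicate 1, sex-reversed replicate 3, normal replicate 3 and sex-reversed replicate 2. Their Pearson correlation over the 6 arrays was 0.95 (exact permutation p = 0.00556) and Spearman's rho 0.94 (exact permutation p = 0.0167). With the 2 arrays farthest from the median of tdrkh.L left out, Pearson's r was 0.95. This was the highest of the 21 pairs among the 7 genes. Adjusted over the 21 pairs by the Benjamini-Hochberg method it was 0.117 for Pearson's r and 0.233 for Spearman's rho, and 0 pairs passed 0.05. Of all probe sets, 0.261% followed tdrkh.L more closely than gtsf1.L did. After each group's mean was subtracted Pearson's r was 0.95, which was not tested, and the arrays share their normalization.

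The germ plasm gene nanos1.L was lowest on sex-reversed replicate 1, where tdrkh.L was highest, and highest on normal replicate 1, where tdrkh.L was lowest. The lowest Pearson correlation among the 21 pairs was that of nanos1.L with tdrkh.L, -0.93 (exact permutation p = 0.0167, adjusted 0.175), with a rho of -0.83 (exact permutation p = 0.0583, adjusted 0.245). It was -0.63 without the 2 arrays farthest from the median of nanos1.L. The pair nanos1.L and grip2.L had an r of 0.81 (exact permutation p = 0.0333, adjusted 0.190) and a rho of 0.89 (exact permutation p = 0.0333, adjusted 0.233), and r was 0.90 without the 2 farthest arrays. The arrays of ddx25.L fall into separate clusters, so no correlation of it with the other 6 genes is given.

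A few further genes, chosen after their values were seen, are set beside these patterns as values. The arginine methyltransferase gene prmt5.L, whose product methylates the arginines that Tudor domains bind, had 8.57, 8.22 and 7.76 in sex-reversed testis and 7.64, 8.85 and 7.92 in normal testis. Its 6 arrays stood in the same order as those of gtsf1.L. The Tudor domain kinase gene stk31.S had 7.43, 7.64 and 5.11 in sex-reversed testis and 5.54, 7.47 and 7.37 in normal testis. Its lowest arrays were sex-reversed replicate 3 and normal replicate 1, the same pair that was lowest for tdrkh.L and gtsf1.L. This pair was not lowest for any other piRNA pathway probe set measured beside the 7 genes. Among those, pld6.S was highest on normal replicate 1 (9.70) and hsp90ab1.S was highest on sex-reversed replicate 3 (10.38). The gene tsn.L had 9.96 on sex-reversed replicate 3 and 9.95 on normal replicate 1, within a range of 9.66 to 9.99.

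The cyclin A1 gene, which in mice acts in spermatocytes as they enter the meiotic divisions, has both copies on the array. ccna1.S had 9.64, 9.65 and 10.66 in sex-reversed testis and 10.51, 9.52 and 10.57 in normal testis. ccna1.L had 7.77, 7.63 and 8.06 in sex-reversed testis and 8.28, 7.28 and 8.10 in normal testis. For both copies, as for ddx25.L, the 3 highest arrays were sex-reversed replicate 3 and normal replicates 1 and 3, and normal replicate 2 was lowest. The other measured meiosis markers did not share this order. The synaptonemal complex gene sycp2l.S had 6.08, 6.18 and 5.73 in sex-reversed testis and 5.53, 5.89 and 5.78 in normal testis, so that the same 3 arrays were its lowest. The testis bromodomain gene brdt.S had 4.87, 5.89 and 5.84 in sex-reversed testis and 6.51, 5.57 and 7.17 in normal testis, lowest on sex-reversed replicate 1. Markers outside the meiosis list could share the order of ddx25.L or of a ccna1 copy. The sperm tail gene tekt4.S had its arrays in the order of ccna1.S, lowest on normal replicate 2 and highest on sex-reversed replicate 3. Its 3 highest arrays were thus also those of ddx25.L. The other spermatid and sperm probe sets did not share this order. The germ cell marker kit.S had 5.44, 4.92 and 5.95 in sex-reversed testis and 5.56, 4.73 and 6.11 in normal testis, in the order of ddx25.L. The blood marker gata1.L had 6.35, 4.83 and 7.32 in sex-reversed testis and 8.70, 4.48 and 7.39 in normal testis, in the order of ccna1.L. Their other copies, kit.L and gata1.S, did not share these orders.

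Mean deviations of cell type marker lists moved in part with these arrays. The list of meiosis markers, with 3 of 29 listed genes measured by 4 probe sets, of which both ccna1 copies are members, had mean log2 deviations of -0.355 to 0.126 on sex-reversed arrays and -0.381 to 0.457 on normal arrays, lowest on normal replicate 2. The spermatid and sperm list (8 of 38 genes) ranged from -0.015 to 0.071 on sex-reversed and from -0.342 to 0.279 on normal arrays, lowest again on normal replicate 2. Its median level was 3.11, below the array medians. Much of that low value came from tekt4.S, which was lowest there and ranged over 2.20 log2 units. The probe set of spag6.L and one of septin12.S were also lowest there, and the other probe sets of this list were not. Other germ cell markers (5 of 18 genes) ranged from -0.063 to -0.00547 on sex-reversed and from -0.105 to 0.142 on normal arrays, also lowest on normal replicate 2. Their probe sets did not move together: kit.S (4.73) and cxcr4.L (3.86) were at their lowest there, and dazl.L (12.05) was at its highest. The other probe sets of this list were not lowest on that array. Oocyte markers (7 of 24 genes), measured because germ plasm genes are also active in oocytes, ranged from -0.033 to 0.240 on sex-reversed and from -0.361 to 0.151 on normal arrays. They too were lowest on normal replicate 2. Of the somatic lists, peritubular muscle markers (7 of 11 genes) ranged from 0.071 to 0.356 on sex-reversed and from -0.358 to -0.064 on normal arrays, without overlap. Each of its probe sets overlapped between the groups when read alone. Sertoli cell markers (5 of 14 genes) ranged from -0.239 to -0.00647 on sex-reversed and from -9.02e-05 to 0.240 on normal arrays, nearly touching. Their median level was 3.79, below the array medians, and the probe sets of fshr.L differed by -0.65 and 0.10. How often lists of this kind do not overlap was not measured. Blood markers (8 of 16 genes) ranged from -0.189 to -0.060 on sex-reversed and from -0.171 to 0.422 on normal arrays, at a median level of 3.89, also below the array medians. The part of any of these cell types in the values of the 7 genes was not tested.

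**Figure D3:**
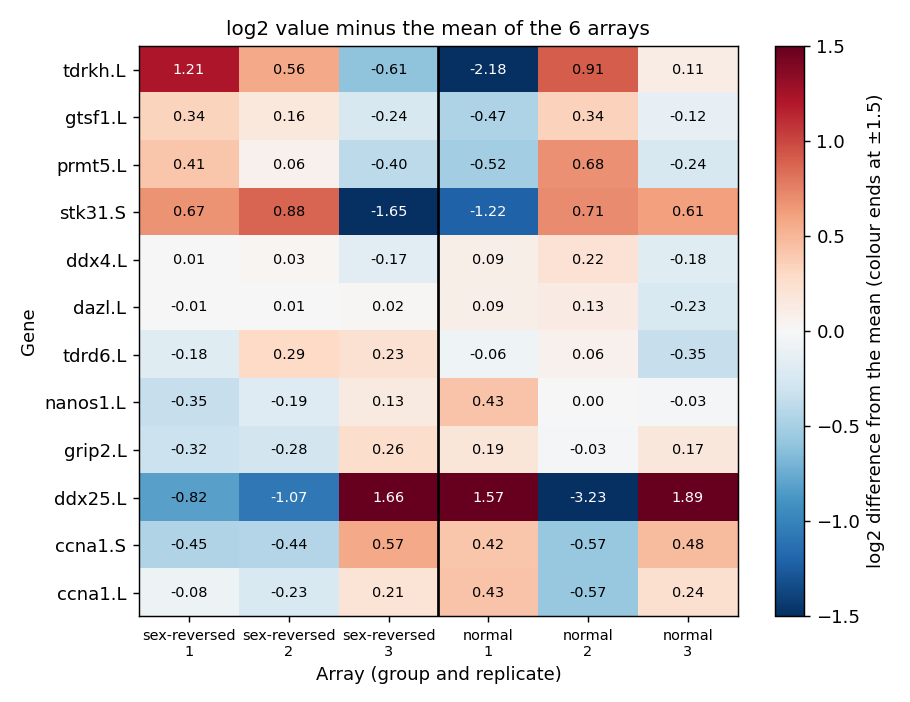
Log2 value of each gene on each array after subtraction of its 6-array mean, sex-reversed arrays left of the black line and normal arrays right of it; red is above and blue below the mean. tdrkh.L, gtsf1.L, prmt5.L and stk31.S are low on sex-reversed replicate 3 and normal replicate 1, where ddx25.L and both ccna1 copies are high. The genes prmt5.L, stk31.S and ccna1 were chosen after their values were seen, and other genes of their lists did not share these patterns.

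The genes whose pattern over the 6 arrays was most like each of the 7 were taken from 3389 probe sets with a single gene name and an SD at or above the median. The 7 genes themselves and placeholder names (LOC and similar) were left out, so the nearest genes are the nearest within this pool. With 6 arrays and so many probe sets, high correlations are found for any gene, and they are a description of these arrays. For ddx25.L, whose arrays lie in separate clusters, r serves only to rank genes. Nearest to it were the histone gene h4c4.L (Pearson r 0.996) and the replication helicase gene mcm5.L (0.987). h4c4.L had 5.48, 5.23 and 7.12 in sex-reversed testis and 7.48, 3.49 and 7.51 in normal testis. It was thus, like ddx25.L, lowest on normal replicate 2 and high on the same 3 arrays.

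Nearest to tdrkh.L were the syntaxin gene stx6.L (0.992) and mcm6.2.S (0.985), a further helicase gene of DNA replication. mcm6.2.S had 7.82, 7.47 and 6.90 in sex-reversed testis and 6.11, 7.78 and 7.03 in normal testis. The 3 arrays highest for mcm5.L, sex-reversed replicate 3 and normal replicates 1 and 3, were thus the 3 lowest for mcm6.2.S. Nearest to gtsf1.L were the ribonucleoprotein gene snu13.L (0.987) and the transcription factor gene myc.L (0.984), whose probe set carries a suffix for shared probes.

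For nanos1.L the nearest were the mitotic kinase gene plk1.S (0.988) and the transcription factor gene gata2.L (0.981). For grip2.L they were the translation factor gene denr.L (0.993) and phospho2.L (0.988), and for tdrd6.L vwa8.L (0.985) and the autophagy gene map1lc3c.L (0.952). For ddx4.L they were glul-like.1.S (0.987) and the transcription factor gene tgif1.S (0.983).

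The rest of the pathway was read from a list of 60 further gene names, of which 23 were measured, by 28 probe sets of 27 L or S copies. None passed (limma, adjusted p under 0.05), 10 had a higher and 18 a lower mean in sex-reversed testis, and the median log2 difference was -0.15 (0.01 over all probe sets). At an unadjusted p under 0.05 there was 1 of 28, beside 4.42% of all probe sets. For 17 of the 28 the 95% interval lay within 2-fold, beside 62.5% of all. Of the 28, 14 had both group means under 5.25, the lowest array median, beside 5396 of all 11485 probe sets.

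**Figure D4:**
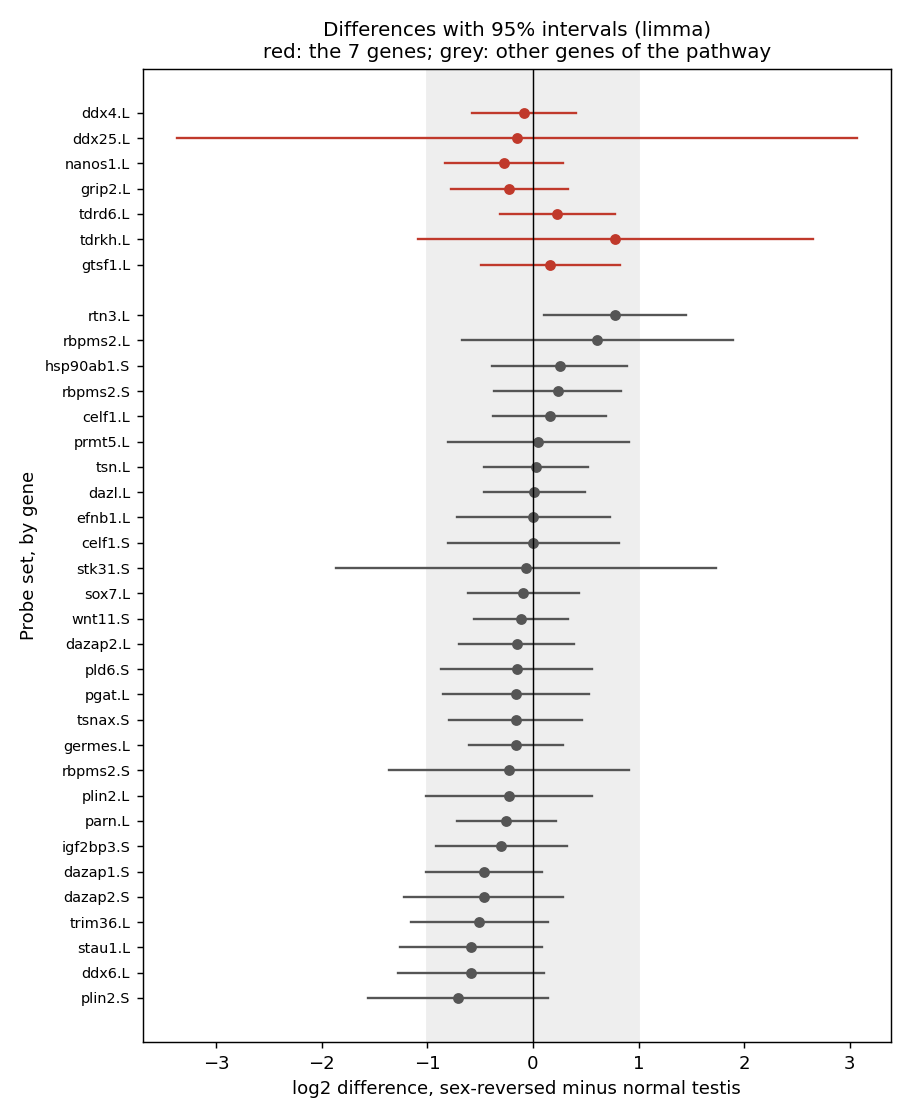
Log2 difference, sex-reversed minus normal testis (x axis), with 95% intervals from limma for the 7 genes (red, top) and 28 probe sets of other pathway genes (grey); the shaded band marks 2-fold in either direction (n = 3 arrays per group). Except for rtn3.L, whose unadjusted interval runs from 0.10 to 1.45, every interval crosses 0.

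The piRNA pathway members among them were 7 probe sets, 3 higher and 4 lower, with differences between -0.25 and 0.26. The mitochondrial nuclease gene pld6.S, whose product cuts piRNA precursors in mice, had 8.76, 9.65 and 9.26 in sex-reversed testis and 9.70, 8.98 and 9.45 in normal testis, a log2 difference of -0.15 (95% interval -0.87 to 0.56). The values of both groups overlapped. For prmt5.L the difference was 0.05 (95% interval -0.81 to 0.90) and for stk31.S -0.07 (95% interval -1.87 to 1.73). With 1 array left out they ran from -0.20 to 0.40 for prmt5.L and from -0.69 to 0.74 for stk31.S. The ribonuclease gene parn.L had all 3 sex-reversed arrays below all normal arrays, at 2.51, 2.81 and 2.61 in sex-reversed testis and 2.83, 2.89 and 2.96 in normal testis, values well under the array medians. The listed PIWI genes were not analysed here, as none was the only symbol of a probe set.

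The germ plasm and localised RNA genes were 21 probe sets, 7 higher and 14 lower, beside 5892 higher and 5593 lower over all probe sets. Both group means were under the lowest array median for 13 of the 21, beside 5396 of all 11485 probe sets. The median absolute difference of the 21 was 0.23, beside 0.21 over all probe sets. Of the 21, 6 differed by at least 0.5 in size, a larger share than the 14.8% of all probe sets. Among these, rtn3.L, ddx6.L, trim36.L and rbpms2.L had both group means below the array medians, while plin2.S and stau1.L lay above them. The reticulon gene rtn3.L, of the endoplasmic reticulum, had 4.35, 4.46 and 4.08 in sex-reversed testis and 3.0001, 3.95 and 3.61 in normal testis, with every sex-reversed array above every normal one. All sex-reversed arrays lay above all normal ones for 1 of the 28 pathway probe sets and 5.37% of all probe sets, and below them for 3 of the 28 and 4.26% of all. Its difference was 0.77 (95% interval 0.10 to 1.45) and did not pass (limma adjusted p = 0.997). Its values lie below the array medians.

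The lipid droplet gene plin2.S, whose RNA is localised to the vegetal pole of the frog oocyte, had 6.92, 7.84 and 7.85 in sex-reversed testis and 8.82, 8.10 and 7.82 in normal testis, a difference of -0.71 (95% interval -1.56 to 0.14). Its other copy plin2.L differed by -0.23 (95% interval -1.01 to 0.56). The RNA transport gene stau1.L had 6.48, 6.68 and 7.40 in sex-reversed testis and 7.26, 7.63 and 7.42 in normal testis, a difference of -0.58 (95% interval -1.26 to 0.09). Groups overlapped for plin2.S and stau1.L.

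The helicase gene ddx6.L, of cytoplasmic RNA granules, differed by -0.59 (95% interval -1.28 to 0.10). The ubiquitin ligase gene trim36.L, needed for the axis of the frog embryo, differed by -0.51 (95% interval -1.15 to 0.14) at group means of 2.81 in sex-reversed and 3.31 in normal testis. The RNA-binding protein gene rbpms2.L (Hermes in Xenopus) differed by 0.61 (95% interval -0.67 to 1.89), by 0.048 without sex-reversed replicate 2 and by 1.04 without sex-reversed replicate 3. Copies and probe sets of one gene did not always run the same way: those of rbpms2.S differed by 0.23 and -0.23. For dazap2 both copies lay lower, at -0.15 for dazap2.L and -0.47 for dazap2.S. The dazap2.S probe set carries a suffix for shared probes, so it may not read that copy alone. Its group means, 4.44 in sex-reversed and 4.90 in normal testis, lay below the array medians. The copies of celf1, a regulator of RNA decay, lay at 0.16 for celf1.L and 0.004 for celf1.S.

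Some genes best known from the germ line were also in this list. dazl.L differed by 0.01 with a 95% interval of -0.47 to 0.49. The germ plasm RNA gene germes.L had group means of 2.84 in sex-reversed and 3.003 in normal testis, and pgat.L (Xpat, a germ plasm RNA) 4.29 in sex-reversed and 4.45 in normal testis. All sex-reversed arrays lay below all normal arrays for germes.L and for the RNA-binding protein gene dazap1.S, whose difference was -0.46 (95% interval -1.01 to 0.09).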

How the data were processed

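Biotin-labelled cRNA from total RNA of 6 testes was put on Affymetrix arrays of 1 colour, per the labels' protocols. The deposited table holds log2 values made by the authors with RMA (background correction, quantile normalization, summary per probe set), per the submitters' processing notes; its version, options and choice of rows: not given in the sources used here. Their range showed the log2 scale. Quantile normalization makes differences relative to the bulk of genes. There were 0 unused columns, no detection calls and no scan batches in the labels or the table. Symbols were taken from the platform's annotation: 6798 probe sets had 1 symbol, 110 several and 4577 none there. No table of sequences was used.

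Groups were taken from titles. All 11485 probe sets were tested with limma 3.58.1 in R 4.3.3 (lmFit, eBayes, sex-reversed minus normal, two-sided, Benjamini-Hochberg, threshold 0.05), with 95% intervals from the moderated fit. The number of arrays limits the precision, and 3 against 3 arrays allow no exact permutation p below 0.1. The fit was tested on simulated data: in 20 sets of 11485 probe sets with 200 changed, it recovered 14.3% of log2 differences of 1, 89.1% of 2 and 97.7% of 3. Noise was independent and Gaussian, with each probe set's moderated variance, and the changed probe sets were drawn at random. The rates are therefore averages and do not apply to ddx25.L and tdrkh.L, whose spread was far wider than that of most probe sets. The members, lists and alternatives were chosen with earlier results of these data known. Named were all members, pathway probe sets with an absolute difference of at least 0.5, the 2 nearest patterns per member, and some genes chosen after seeing values (cell type markers, gene copies, and those near a pattern or an extreme). A list's deviation on an array is the mean, over its probe sets without members, of the log2 value minus the probe set's mean. Alternatives were median centring, a block for the replicate number, cyclic loess, filters at the median and 25th percentile of level, trended and robust variance, no moderation, array weights and each array left out.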

Additional observations from a re-analysis of the deposited data

How the results depend on the processing

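None of the 7 genes passed under any alternative, the 6 fits with 1 array left out included. Of the 28 other pathway probe sets none passed where it was tested. The filter above the median level kept 13 of them and the filter above the 25th percentile kept 22. The smallest adjusted p of limma for a member was 0.917 and for a pathway probe set 0.679. Under the 8 alternatives that kept all arrays, the differences of the 7 genes kept their sign. With the replicate block the difference was -0.15 for ddx25.L and 0.78 for tdrkh.L and 0 probe sets passed. The labels do not say whether equal replicate numbers pair the samples. Deviations of arrays with the same number correlated at -0.00684, -0.0247 and 0.139, and those with different numbers at -0.16 to 0.152. So few arrays cannot decide whether samples were paired. The count over all probe sets was 0 in the fit as reported, 2 with median centring, 2 with array weights and 1 with the filter above the median level, and 0 to 6 with 1 array left out, where 6 came without sex-reversed replicate 3; the cause was not tested. With 1 array left out, 7 of 42 differences of the 7 genes changed sign: ddx25.L ran from -1.81 to 0.75, tdrkh.L from -0.12 to 1.43, gtsf1.L from -0.0265 to 0.38 and ddx4.L from -0.20 to 0.00202, while nanos1.L, grip2.L and tdrd6.L kept theirs. Of the 28 pathway probe sets 11 changed sign in at least 1 of those fits, among which were 0 of the 6 named for size. Those 6 were chosen for large differences in these same arrays, which favours a kept sign, so this is no support for them. Ranked among single-symbol probe sets only, mean ranks of sex-reversed arrays were 66.6% for ddx25.L and 53.6% for nanos1.L, against 72.2% and 60.6% among all. The mean over several probe sets of a gene could not be run, since each of the 7 genes has 1. Signal over background was not measured, which limits dim probe sets.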
